A study of Homo sapiens with 20 samples.

Results

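Epithelial-mesenchymal transition (EMT) was followed here through 10 genes: the epithelial genes CDH1, EPCAM and ESRP1, and the mesenchymal genes VIM, CDH2, FN1, SPARC, ZEB1, ZEB2 and SNAI2. They were taken by symbol from a table of 60232 genes, each symbol matched 1 row, and all 10 passed the filter on low values that left 27350 genes for testing. RNA was sequenced from 5 gastric cancer cell lines, all wild type by their labels, after 72 h with DCB (decitabine, a cytidine analogue that enters DNA and traps DNA methyltransferases) or with its solvent control DMSO. The CpG island methylator phenotype (CIMP+) marks YCCEL1, SNU719 and AGS, of which YCCEL1 and SNU719 also carry Epstein-Barr virus (EBV+) while AGS is EBV-. HGC27 and SNU16 have neither trait (EBV-, CIMP-). Each line and treatment has 2 libraries, 20 in all. Nothing in the labels or methods says that the libraries of a group were grown apart. The spread between them, which enters every p-value, may thus be technical. Each line stands for 1 tumour, and the study's methods name another line where the labels name HGC27, the name kept here.

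In EMT, an epithelial cell gives up the junctions that bind it to its neighbours and takes on the vimentin cytoskeleton, N-cadherin and secreted matrix of a mesenchymal cell. The repressors ZEB1, ZEB2 and SNAI2 bind E-boxes in the promoter of CDH1 and of other epithelial genes, and ZEB1 and the miR-200 family repress each other. ESRP1 keeps the epithelial splice forms of several transcripts. In the stomach, loss of E-cadherin is the hallmark of the diffuse type of cancer.

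VIM, FN1 and SPARC, whose values were higher with DCB in all 3 CIMP+ lines, are shown by their promoters, since DCB acts on methylation at CG pairs. The sequences are those of RefSeq on GRCh38.p14, 250 bases before to 50 bases from the annotated start on, read on the strand of the gene, with every CG pair in capitals. They lie at chr10:17227991-17228290 on the plus strand for VIM, at chr2:215436019-215436318 on the minus strand for FN1 and at chr5:151686866-151687165 on the minus strand for SPARC.
VIM: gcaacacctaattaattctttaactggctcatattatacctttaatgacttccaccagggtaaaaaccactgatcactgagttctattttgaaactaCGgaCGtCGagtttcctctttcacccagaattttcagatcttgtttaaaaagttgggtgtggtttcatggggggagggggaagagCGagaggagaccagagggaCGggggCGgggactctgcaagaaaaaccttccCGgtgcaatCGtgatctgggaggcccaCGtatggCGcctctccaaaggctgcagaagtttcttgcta
FN1: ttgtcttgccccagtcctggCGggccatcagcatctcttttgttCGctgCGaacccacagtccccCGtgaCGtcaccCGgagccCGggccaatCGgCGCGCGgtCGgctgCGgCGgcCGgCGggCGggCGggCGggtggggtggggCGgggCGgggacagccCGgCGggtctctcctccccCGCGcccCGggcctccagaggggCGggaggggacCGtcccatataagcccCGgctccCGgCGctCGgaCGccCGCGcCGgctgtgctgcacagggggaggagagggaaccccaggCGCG
SPARC: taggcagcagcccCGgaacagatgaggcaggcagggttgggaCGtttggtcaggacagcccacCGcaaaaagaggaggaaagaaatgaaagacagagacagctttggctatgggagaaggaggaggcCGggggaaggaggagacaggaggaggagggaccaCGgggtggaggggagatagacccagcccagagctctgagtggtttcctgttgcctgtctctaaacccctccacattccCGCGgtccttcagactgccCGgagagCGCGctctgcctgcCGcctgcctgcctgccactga
The FN1 window holds 38 CG pairs, more than 90.1% of 35116 promoter windows of the same length in that table, of which 96.0% hold at least 1. The VIM and SPARC windows hold 10 and 11, under the median of 14 over all windows. The FN1 window thus stood apart in its number of CG pairs from those of VIM and SPARC, which were alike. CG pairs outside these windows were not counted. The methylation of these windows was not analysed here. The table also matched CDH2, ZEB1 and ZEB2, whose windows are not given here, and gave no entry for CDH1, EPCAM, ESRP1 and SNAI2. Whether the number of CG pairs goes with the response to DCB was not tested.

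The values are normalized estimated counts, and their totals ran from 7764408 to 9321014 per library. The most frequent low positive value, taken as the step of a single read, was 0.754 to 1.21 units by library. Values of a few units thus rest on a handful of reads. Replicate libraries correlated at 0.969 to 0.980 across genes. Gastric epithelial markers (KRT8, KRT18, KRT19, CDH17, CLDN18, TFF1, GATA6, HNF4A and SOX2) summed to 29280 to 88040 in the libraries of YCCEL1, SNU719, AGS and SNU16. In HGC27 they summed to 528.7 to 630 with DCB and to 216.8 to 247.3 with DMSO, with CLDN18 and TFF1 listed at 0. Only 4 of the 9 averaged above 10 in HGC27, so these markers gave little sign of a gastric epithelial state there. The tissue of origin of the line was not tested. All 8 fibroblast markers (COL1A1, COL1A2, DCN, LUM, PDGFRA, PDGFRB, FAP and THY1) averaged above 10 in HGC27, with sums of 19810 to 21350 with DCB and 14590 to 15090 with DMSO.

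HGC27 stood apart from the other lines in all 10 genes under DMSO. Its CDH1, EPCAM and ESRP1 were lower, and its 7 mesenchymal genes were higher, than in each of the other 4 lines, in 40 of 40 comparisons. Among the other lines, 18 of 60 comparisons passed, for 58 of 100 in all, against 40.4% of all gene and line pair comparisons over the 27350 genes. That share covers all 10 line pairs, so it does not show how far HGC27 differs from the other lines across all genes. With DCB, 74 of 100 passed against 43.6% of all, and 35 of the 60 without HGC27. In these bulk libraries, fewer cells of a type and less RNA per cell cannot be told apart.

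**Figure D1:**
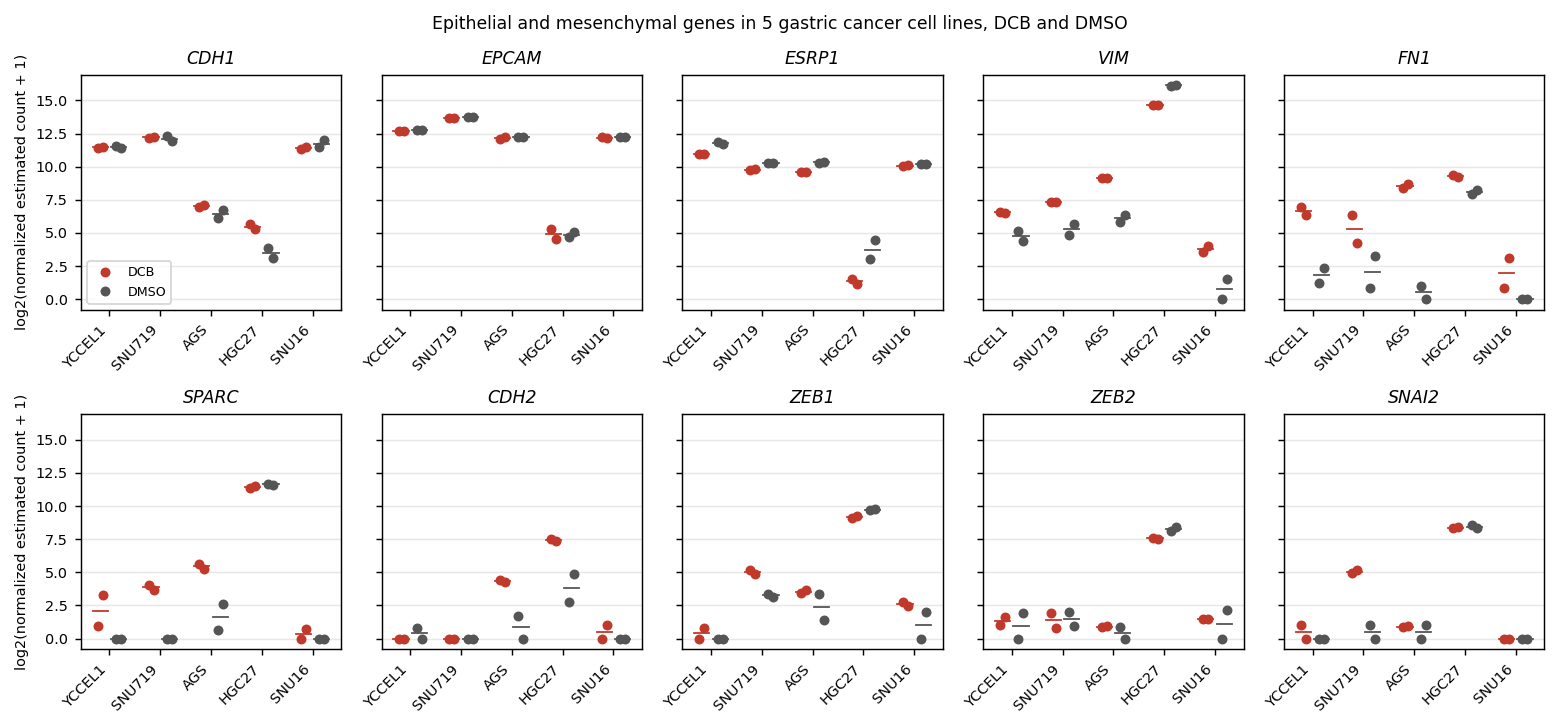
Normalized estimated counts of the 10 genes, as log2(value + 1), in each library of the 5 lines, DCB in red and DMSO in grey, with a short line at the mean of the 2 libraries. HGC27 is lowest for CDH1, EPCAM and ESRP1 and highest for the other 7 genes, and FN1 in AGS reaches 332.9 and 411.9 with DCB, against 1.03 and 0 with DMSO.

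With DCB, 3 or 4 of the 7 mesenchymal genes rose in each CIMP+ line, VIM rose in SNU16, and in HGC27 CDH2 rose while VIM fell. Among the 3 epithelial genes, CDH1 rose and ESRP1 fell in HGC27, and ESRP1 fell over the 5 lines. With each line fitted alone, neither HGC27 call passed, and ESRP1 fell in YCCEL1, SNU719 and AGS. A gene passed at a limma adjusted p under 0.05. In AGS, 4 of the 10 genes rose (VIM, FN1, SPARC and CDH2) and none fell, against 18.5% and 9.13% of all genes. In SNU719, 4 rose (VIM, FN1, SPARC and SNAI2) and none fell, against 13.5% and 7.64%. In YCCEL1, 3 rose (VIM, FN1 and SPARC) and none fell, against 14.6% and 6.93%. SNU16 had 1 rise, VIM, and no fall, against 4.5% and 2.34%. At an unadjusted p under 0.05, limma gave 1 lower gene of the 10 in AGS and in YCCEL1, ESRP1 in both, and 0 in SNU719 and in SNU16. In HGC27, 2 rose (CDH1 and CDH2) and 2 fell (VIM and ESRP1), against 14.7% and 9.03%. These calls come from 1 fit of all lines. With each line fitted alone, 2 rose (VIM and FN1) and ESRP1 fell in AGS, against 11.9% and 5.56% of all genes. In SNU719, 2 rose (SNAI2 and SPARC) and ESRP1 fell, against 9.02% and 5.03%. In YCCEL1, FN1 rose and ESRP1 fell, against 8.27% and 4.1%. In HGC27, FN1 rose and VIM fell, against 7.92% and 5.11%, and in SNU16 limma called 0 in either direction, against 1.67% and 0.761%, with 1 higher at an unadjusted p under 0.05. Over the 5 lines, in a model with a term for the line, 4 rose (VIM, FN1, SPARC and CDH2) and ESRP1 fell, against 17.9% and 6.94%. That model counts the libraries of a line as separate units and leaves differences in response between lines in its residual. Its p-values, here and below, therefore do not rest on the 5 lines as units. Counts of 3 or 4 among 10 are above the shares of all genes, but the genes were chosen with results of these data known.

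CDH1 (chr16:68737292-68835537, plus strand) encodes E-cadherin, the cadherin of epithelial adherens junctions. Under DMSO it averaged 4450 ± 804 in SNU719, 3437 ± 858 in SNU16 and 2868 ± 265 in YCCEL1 (SD, n = 2 each), and neighbours in that order did not differ beyond their spread (adjusted p = 0.26 and 0.525). AGS, with 67.8 and 103.8, was 5.08 ± 0.24 (SE) below YCCEL1 on the log2 scale (adjusted p = 1.05e-09). HGC27 was lower again, 2.92 ± 0.24 below AGS (adjusted p = 1.75e-07). AGS thus had high sums of the gastric epithelial markers beside little CDH1. In HGC27, CDH1 had 49.2 and 39.0 with DCB, against 13.5 and 7.72 with DMSO. The groups did not overlap, and the difference of 2.00 ± 0.24 on the log2 scale passed (adjusted p = 3.65e-05, and 0.0894 with HGC27 fitted alone, over a range of 2e-05 to 0.089 in 14 alternatives). With DCB, CDH1 in HGC27 was still far below SNU16 (HGC27 minus SNU16, -5.95 ± 0.24, adjusted p = 1.37e-10). In AGS, CDH1 had 122.3 and 139.2 with DCB, against 67.8 and 103.8 with DMSO, without overlap but short of the threshold (log2 difference 0.63 ± 0.24, adjusted p = 0.0733). In YCCEL1, SNU719 and SNU16, whose levels were high, the DCB and DMSO libraries overlapped.

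EPCAM (chr2:47345158-47387601, plus strand) encodes an epithelial surface glycoprotein. It was high in 4 lines, with 13030 and 13350 in SNU719 with DCB against 13780 and 13680 with DMSO. YCCEL1 followed, with 6734 and 6606 with DCB against 7077 and 7029 with DMSO. AGS and SNU16 were level with each other under DMSO, at 4802 ± 36.1 and 4795 ± 100 (SD, n = 2 each, adjusted p = 1). HGC27 had 38.5 and 22.4 with DCB, against 24.3 and 32.4 with DMSO, and lay 7.37 ± 0.17 below AGS under DMSO on the log2 scale (adjusted p = 2.11e-13). AGS therefore held EPCAM at the level of SNU16 while its CDH1 was far lower. No difference of EPCAM between DCB and DMSO passed: the log2 differences ran from -0.08 to 0.07, each with an SE of 0.17, and the adjusted p-values from 0.836 to 1. As deposited, all DCB libraries lay below all DMSO libraries in YCCEL1, SNU719 and AGS, by amounts smaller than the model's spread. As a percent of the library total, the YCCEL1 libraries with DCB lay above those with DMSO (0.07812% and 0.07685%, against 0.07675% and 0.07541%). By that measure the libraries of SNU719 and of AGS overlapped.

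ESRP1 (chr8:94641074-94707466, plus strand) encodes the splicing regulator that favours epithelial exons. In YCCEL1 it had 2022 and 2042 with DCB, against 3689 and 3436 with DMSO. In AGS it had 761.6 and 776.7 with DCB, against 1269 and 1337 with DMSO. In SNU719 it had 839.4 and 892.1 with DCB, against 1243 and 1226 with DMSO. The DCB libraries were lower without overlap in these 3 CIMP+ lines and also in SNU16 (1044 and 1119 with DCB, against 1177 and 1181 with DMSO). In HGC27 it had 1.83 and 1.27 with DCB, against 7.13 and 20.7 with DMSO, values that rest on few reads. As deposited, ESRP1 was thus lower with DCB in 10 of 10 libraries than in the DMSO libraries of the same line. How many of all genes show such a pattern was not counted. As a percent of the library total, ESRP1 overlapped in SNU16 (0.01208% and 0.01295% with DCB, against 0.01293% and 0.01314% with DMSO). Over the 5 lines it fell by 0.92 on the log2 scale (SE 0.22, adjusted p = 0.00453), and over the 4 lines without HGC27 it fell by 0.55 (adjusted p = 0.000455), over a range of 6.9e-05 to 0.01 in 31 alternatives. By line, the fall passed in HGC27 (-2.39 ± 0.29, adjusted p = 3.32e-05). The differences in YCCEL1 (-0.81, adjusted p = 0.0641), AGS (-0.76, adjusted p = 0.0694), SNU719 (-0.51, adjusted p = 0.26) and SNU16 (-0.12, adjusted p = 0.937) did not pass. Which lines passed depended on the fit: with each line fitted alone, YCCEL1, SNU719 and AGS passed (adjusted p = 0.0169, 0.024 and 0.0124) and HGC27 did not (0.14). In the joint fit all lines share the SE of 0.29. The HGC27 DMSO libraries (7.13 and 20.7), the replicate pair furthest apart on the log2 scale, enter it. Over the 14 alternatives per line the adjusted p ran from 0.017 to 0.22 in YCCEL1, 0.024 to 0.5 in SNU719, 0.012 to 0.21 in AGS and 1.7e-09 to 0.14 in HGC27. Under DMSO, YCCEL1 was highest, 1.45 ± 0.29 above AGS (adjusted p = 0.00123), while AGS, SNU719 and SNU16 did not differ beyond their spread (adjusted p = 0.959 for both neighbour pairs).

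VIM (chr10:17228241-17237593, plus strand) encodes vimentin, the intermediate filament of mesenchymal cells, and moved in opposite directions in HGC27 and in the other lines. In HGC27 it had 25640 and 25900 with DCB, against 71740 and 72760 with DMSO. These were 0.330% and 0.333% of the library total with DCB, against 0.847% and 0.848% with DMSO. The fall of 1.49 on the log2 scale (SE 0.41) passed (adjusted p = 0.0163), but not with any 1 of the 4 HGC27 libraries left out (adjusted p = 0.068 to 0.078) nor with a pseudocount of 0.5 (0.0588), over a range of 0.00067 to 0.078 in 14 alternatives. HGC27 still had the most VIM of the 5 lines with DCB, 5.52 ± 0.41 above AGS (adjusted p = 5.76e-08), against 10.03 ± 0.41 above AGS with DMSO (adjusted p = 7.47e-11). In AGS, VIM had 564.6 and 556.5 with DCB, against 57.3 and 80.5 with DMSO, a rise of 3.03 ± 0.41 (adjusted p = 7.56e-05). In SNU719 it had 164.8 and 163.6 with DCB, against 27.5 and 51 with DMSO, a rise of 2.10 ± 0.41 (adjusted p = 0.00198). In YCCEL1 it had 97.3 and 92.0 with DCB, against 34.6 and 20.4 with DMSO, a rise of 1.79 ± 0.41 (adjusted p = 0.00581, and 0.071 without the second DMSO library). In these 3 lines the DCB libraries all lay above the DMSO libraries. SNU16 had the least VIM, with 10.6 and 15.4 with DCB, against 0 and 1.94 with DMSO, and its rise of 3.01 ± 0.41 passed (adjusted p = 0.000378, and 0.21 with SNU16 fitted alone, over a range of 4.1e-05 to 0.21 in 14 alternatives). Fitted alone, VIM also missed the threshold in YCCEL1 (0.0788) and SNU719 (0.0671), over ranges of 0.00037 to 0.079 and 7.4e-05 to 0.067. Over the 5 lines VIM rose by 1.69 ± 0.42 (adjusted p = 0.00669), and over the 4 lines without HGC27 by 2.48 (adjusted p = 4.46e-05).

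CDH2 (chr18:27932879-28177946, minus strand) encodes N-cadherin, which takes the place of E-cadherin in mesenchymal cells. In HGC27 it had 178.7 and 165.7 with DCB, against 5.63 and 27.6 with DMSO, a rise of 3.65 ± 0.65 on the log2 scale (adjusted p = 0.000863). In AGS it had 20.7 and 18.3 with DCB, against 2.25 and 0 with DMSO, a rise of 3.50 ± 0.65 (adjusted p = 0.00103). Both were without overlap, and neither passed with the line fitted alone (adjusted p = 0.12 and 0.0886, over ranges of 1.4e-05 to 0.12 in HGC27 and 0.00069 to 0.089 in AGS). In the 12 libraries of YCCEL1, SNU719 and SNU16, CDH2 was at most 0.996. The call over the 5 lines (adjusted p = 0.0378) thus rested on AGS and HGC27, and was lost in 13 of 31 alternatives (range 0.0012 to 0.19), among them the fit without HGC27. In HGC27, both cadherins were therefore higher with DCB.

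FN1 (chr2:215360440-215436073, minus strand) encodes fibronectin, a matrix glycoprotein. In AGS it had 332.9 and 411.9 with DCB, against 1.03 and 0 with DMSO. That rise, 8.03 ± 0.86 on the log2 scale (adjusted p = 9.28e-06), was the largest among the 10 genes and 5 lines, comparisons with a group at 0 left out. With DCB, AGS no longer differed from HGC27 beyond the spread (HGC27 minus AGS 0.78 ± 0.86, adjusted p = 0.501), the only 1 of 40 comparisons with HGC27 under DCB that did not pass. In YCCEL1, FN1 had 126.5 and 79.7 with DCB, against 1.35 and 4.2 with DMSO, a rise of 4.86 ± 0.86 (adjusted p = 0.000993). In SNU719 it had 80.65 and 17.95 with DCB, against 0.813 and 8.81 with DMSO, a rise of 3.22 ± 0.86 (adjusted p = 0.0155) that was lost without the first DMSO library (0.185), without the first DCB library (0.177) and with SNU719 fitted alone (0.256), over a range of 0.0054 to 0.26 in 14 alternatives. The 2 DCB libraries of SNU719 differed from each other more than those of the other lines with FN1 above 10. In HGC27, FN1 had 670.7 and 606.3 with DCB, against 247.3 and 295.4 with DMSO, without overlap but short of the threshold (1.24 ± 0.86, adjusted p = 0.363, and 0.0334 with HGC27 fitted alone, over a range of 0.033 to 0.58 in 14 alternatives). In SNU16 it had 0.758 and 7.42 with DCB and was listed at 0 with DMSO.

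SPARC (chr5:151661096-151686975, minus strand) encodes osteonectin, a collagen-binding matrix protein. It was 2637 and 2864 in HGC27 with DCB, against 3241 and 3153 with DMSO, which did not pass (-0.22 ± 0.67, adjusted p = 0.91). In AGS it had 47.8 and 37.7 with DCB, against 0.568 and 5.1 with DMSO, a rise of 3.81 ± 0.67 (adjusted p = 0.00071, and 0.098 with AGS fitted alone, over a range of 4.6e-05 to 0.098). In SNU719 it had 15.7 and 11.6 with DCB, and in YCCEL1 0.888 and 8.82, and both were listed at 0 with DMSO, so no fold is given. SNU719 passed (adjusted p = 0.000904). YCCEL1 passed narrowly (adjusted p = 0.0391) and lost the call in 7 of 14 alternatives (range 0.0028 to 0.39). In the CIMP+ lines SPARC thus appeared with DCB at levels far below that of HGC27, and AGS with DCB was still 5.98 ± 0.67 below it (adjusted p = 4.29e-06). In SNU16 it was at most 0.627.

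ZEB1 (chr10:31318495-31529814, plus strand) encodes a zinc finger repressor of CDH1. It was 537 and 602.9 in HGC27 with DCB, against 817.5 and 862 with DMSO (-0.56 ± 0.63, adjusted p = 0.611). In SNU719 it had 34.5 and 28.2 with DCB, against 9.3 and 7.82 with DMSO, without overlap and short of the threshold (1.76 ± 0.63, adjusted p = 0.0648). This difference passed in 2 of 14 alternatives, a pseudocount of 5 (0.00465) and a filter on a mean value of at least 10 (0.0478), over a range of 0.0047 to 0.23. It was 0 to 11.4 in the other 12 libraries. ZEB1 passed in no line in the fit of all libraries, and its test over the 5 lines (adjusted p = 0.0643) passed in 6 of 31 alternatives, among them the fit without HGC27 (adjusted p = 0.0224, range 0.022 to 0.12).

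ZEB2 (chr2:144364364-144521057, minus strand), the paralogue of ZEB1, was 190.6 and 184.6 in HGC27 with DCB, against 274.2 and 341.4 with DMSO (-0.70 ± 0.73, adjusted p = 0.574), and at most 3.35 elsewhere. Both ZEB genes were lower without overlap in HGC27 with DCB, and neither difference passed.

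SNAI2 (chr8:48917598-48921740, minus strand) encodes the repressor Slug. In HGC27 it had 320.3 and 340.9 with DCB, against 379 and 315.2 with DMSO, with overlap. In SNU719 it had 29.7 and 34.9 with DCB, against 1.01 and 0 with DMSO, a rise of 4.55 ± 0.46 (adjusted p = 8.15e-06). In the 12 libraries of YCCEL1, AGS and SNU16 it was at most 1.07. In SNU719, where SNAI2 rose, CDH1 had 4678 and 4817 with DCB, against 5018 and 3881 with DMSO, with overlap.

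**Figure D2:**
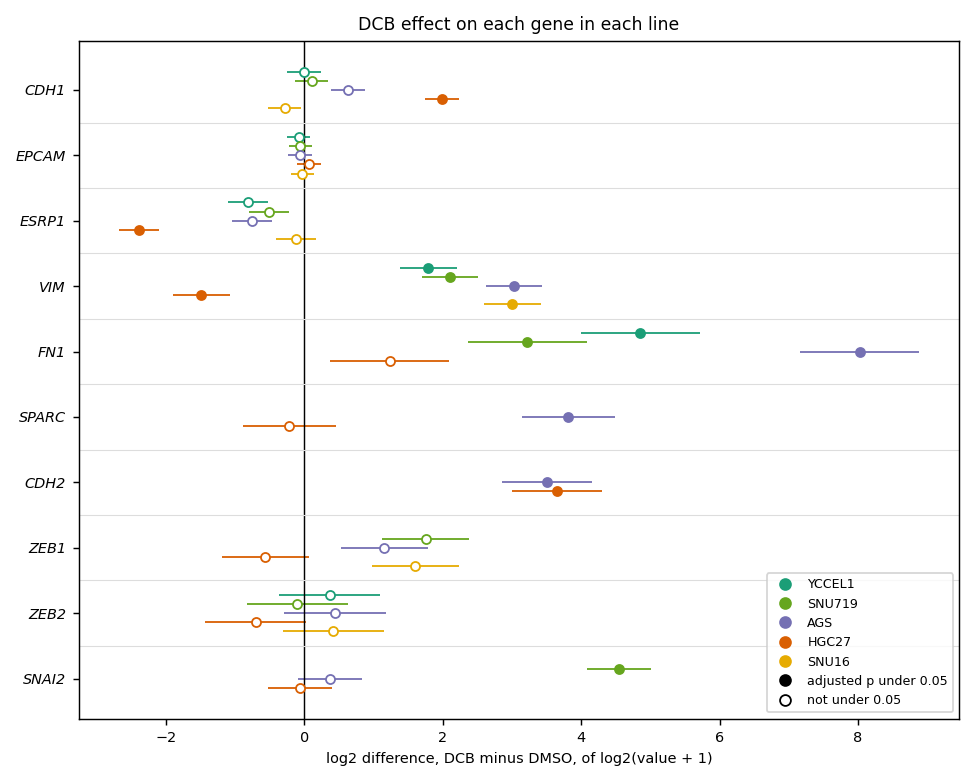
Log2 difference, DCB minus DMSO, of log2(value + 1) for each gene in each line, with bars of 1 SE from limma, filled where the adjusted p was under 0.05. Comparisons with a group listed at 0 in both libraries are left out, and VIM is the gene with passing differences on both sides of 0, from -1.49 in HGC27 to 3.03 in AGS.

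The response itself was compared between lines. By an F test over the 5 lines, 7 of the 10 genes responded differently (VIM, SNAI2, CDH1, FN1, CDH2, ESRP1 and SPARC), against 34.2% of all genes. EPCAM, ZEB1 and ZEB2 did not pass (adjusted p = 0.982, 0.202 and 0.826). Between CIMP+ and CIMP- lines, 4 genes had a larger response in CIMP+ and none a smaller one, against 12.8% and 8.94% of all genes. At an unadjusted p under 0.05, 1 gene, CDH1, had a smaller response in CIMP+ by limma. VIM responded by 1.55 ± 0.37 more in CIMP+ lines on the log2 scale (adjusted p = 0.00843, and 0.0808 with a pseudocount of 0.5). FN1 (adjusted p = 0.00328), SPARC (0.00193) and SNAI2 (0.00593) are given with no size, since groups listed at 0 enter them. The lines also started from unlike levels. Under DMSO, FN1 averaged 271.4 in HGC27, was at 0 in SNU16 and averaged 0.513 to 4.81 in the CIMP+ lines. The part of the starting level in these log2 differences was not tested. The VIM difference joins CIMP- lines that moved in opposite directions, a fall in HGC27 and a rise in SNU16, and the SNAI2 difference comes from SNU719. Between EBV+ and EBV- lines, SNAI2 had a larger response in EBV+ and CDH1 and CDH2 a smaller one, against 10.5% and 9.17% of all genes. The CDH1 difference was -0.73 ± 0.22 (adjusted p = 0.0338), and it missed the threshold in 11 of 20 fits that left out 1 library (highest adjusted p 0.0915). All of these pass or miss on 2 or 3 lines a side, and every EBV+ line is also CIMP+, so traits that the lines share cannot be told apart.

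Other genes of the transition were counted from lists chosen with earlier results of these data known. Of 34 mesenchymal matrix genes, 24 rose over the 5 lines and 1 fell, beside 17.9% and 6.94% of all genes, with a median log2 difference of 1.46 against 0.15 over all genes. The shares of all genes that rose or fell in each line are those given above for the 10 genes. By line, 19 rose and none fell in AGS, 16 and none in SNU719 and in YCCEL1 (0 lower at an unadjusted limma p under 0.05 in these 3 lines), 9 rose and 1 fell in HGC27, and 4 rose and 1 fell in SNU16. TGFBI, a matrix protein induced by TGF-beta, rose over the 5 lines by 3.60 ± 0.34 (adjusted p = 8.13e-07). Its mean with DCB was 36.5 in YCCEL1, 60.7 in SNU719, 69.3 in AGS, 67.0 in HGC27 and 54.9 in SNU16, against 1.54 to 8.33 with DMSO. TIMP1, an inhibitor of matrix metalloproteinases, rose by 0.95 ± 0.10 (adjusted p = 4.43e-06), and COL6A3, a collagen chain, by 0.82 ± 0.13 (adjusted p = 0.000196). TIMP3, a matrix-bound inhibitor of the same enzymes, passed (adjusted p = 0.000297) with YCCEL1 and SNU719 listed at 0 under DMSO. MMP14, a membrane metalloproteinase, was the gene that fell in HGC27 (-1.17 ± 0.09, adjusted p = 4.48e-07) and in SNU16 (-0.78 ± 0.09, adjusted p = 0.000109). With each line fitted alone, 13 rose and none fell in AGS, 10 and none in SNU719 (1 lower in each at an unadjusted limma p under 0.05), 9 rose and 1 fell in YCCEL1, and 0 in either direction in SNU16 (6 higher and 3 lower at an unadjusted p under 0.05). In HGC27 the counts depended on the libraries too: without the first DCB library 4 rose, without the second DCB or the second DMSO library 5, and with HGC27 fitted alone 8 rose and 8 fell.

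Of 25 mesenchymal cytoskeleton and surface genes, 16 rose over the 5 lines and none fell (0 lower at an unadjusted limma p under 0.05), beside 17.9% and 6.94% of all genes, with a median of 1.33. By line, 16 rose and 1 fell in SNU719, 12 rose and 4 fell in YCCEL1, 9 rose and 1 fell in AGS, 10 rose and 1 fell in HGC27, and 6 rose and none fell in SNU16 (1 lower at an unadjusted p under 0.05). With each line fitted alone, 12 rose and 1 fell in SNU719, 8 and 2 in YCCEL1, 9 and 0 in AGS, 7 and 2 in HGC27 and 1 and 0 in SNU16, with 1 lower in AGS and 2 lower in SNU16 at an unadjusted limma p under 0.05. EMP3, a membrane protein, rose by 1.83 ± 0.17 (adjusted p = 7.48e-07) and ACTA2, smooth muscle actin, by 1.45 ± 0.21 (adjusted p = 0.000101). CAV1, the caveolin of caveolae (adjusted p = 3.34e-06), and QKI, an RNA-binding protein of mesenchymal splicing (adjusted p = 0.000102), passed with YCCEL1 and SNU719 listed at 0 under DMSO. Other mesenchymal genes thus rose beside VIM, FN1 and SPARC, on lists chosen with earlier results known. Leucocyte and endothelial markers, given below, rose too.

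Of 38 genes of epithelial junctions and their partners, 19 rose and 1 fell in HGC27, beside 14.7% and 9.03% of all genes, with a median of 0.75 against 0.04 over all genes. JUP, the plakoglobin of junctions and desmosomes, had a mean of 327.6 in HGC27 with DCB, against 7.39 with DMSO (5.30 ± 0.10, adjusted p = 3.02e-13). LSR, a protein of tricellular junctions, rose there by 2.12 ± 0.08 (adjusted p = 2.86e-10), and PPL, which links desmosomes to filaments, by 2.51 ± 0.10 (adjusted p = 5e-10). EPCAM itself did not pass in HGC27. The other lines had 10 rises and 2 falls in YCCEL1, 8 and 2 in SNU719, 7 and 3 in AGS, and 0 and 1 in SNU16, where limma gave 1 higher and 5 lower at an unadjusted p under 0.05. With each line fitted alone the order of the lines turned: 11 rose and 2 fell in SNU719, 11 and 1 in AGS, 6 and 5 in YCCEL1, 3 and 0 in HGC27 and 0 and 2 in SNU16. At an unadjusted limma p under 0.05 in those fits, 12 were higher and 0 lower in HGC27, and 4 were higher and 12 lower in SNU16.

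Of 16 epithelial transcription and splicing factors, 6 rose and 1 fell in HGC27, beside 14.7% and 9.03% of all genes. ESRP2, the paralogue of ESRP1, averaged 40.5 ± 5.67 with DCB, against 4.16 ± 2.26 with DMSO (SD, n = 2 each), and rose by 3.07 ± 0.23 (adjusted p = 3.29e-07). CDX2, an intestinal homeobox factor, rose by 1.83 ± 0.20 (adjusted p = 1.57e-05) and FOXA2, a factor of endodermal epithelium, by 0.58 ± 0.12 (adjusted p = 0.00271). OVOL2, a repressor of ZEB1, passed with HGC27 listed at 0 under DMSO (adjusted p = 0.000707). ESRP1 and ESRP2 thus differed in direction in HGC27. With HGC27 fitted alone, 0 of these 16 rose by limma, and 3 were higher at an unadjusted p under 0.05. Over the 5 lines, 3 of the 16 rose and none fell (1 lower at an unadjusted p under 0.05), a share close to the 17.9% of all genes that rose, with a median of 0.19.

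**Figure D3:**
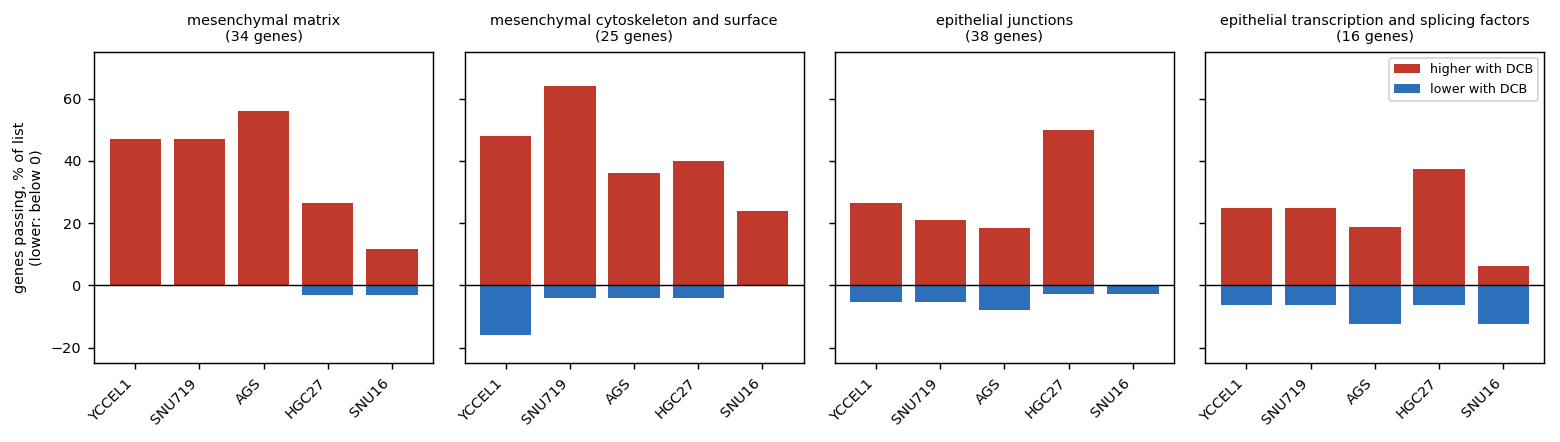
Share of each list, in percent, whose genes rose (red, above 0) or fell (blue, below 0) with DCB at an adjusted p under 0.05 in each line. In this fit of all lines, 19 of 34 matrix genes rose in AGS and 19 of 38 junction genes in HGC27, and with HGC27 fitted alone 3 of those 38 did.

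Of 14 other transcription factors of EMT, 5 rose over the 5 lines and none fell (0 lower at an unadjusted limma p under 0.05), beside 17.9% and 6.94% of all genes, with a median of 0.55. By line, 5 rose and none fell in SNU719 (1 lower at an unadjusted p under 0.05), 3 and none in YCCEL1 and 2 and none in SNU16 (0 lower in both), 2 rose and 1 fell in AGS, and 1 rose and 1 fell in HGC27, where the median was -0.03. FOXC1, a forkhead factor, was lower in HGC27 (-0.94 ± 0.15, adjusted p = 0.000303) and AGS (-0.76 ± 0.15, adjusted p = 0.0014), and higher in SNU719 (0.90 ± 0.15, adjusted p = 0.000484). SNAI1, the Snail repressor related to SNAI2, rose by 0.83 ± 0.18 (adjusted p = 0.0028). LEF1, a factor of the Wnt pathway, passed (adjusted p = 0.00119) with YCCEL1, SNU719, AGS and SNU16 listed at 0 under DMSO, and FOXC2, of the same family as FOXC1, passed likewise with YCCEL1 and HGC27 at 0 (adjusted p = 0.0236). Of 16 genes of the TGF-beta pathway, a main inducer of EMT, 4 rose and 2 fell over the 5 lines, beside 17.9% and 6.94% of all genes, and 2 rose and 3 fell without HGC27. Their median of 0.05 was under that of all genes. LTBP2, which binds fibrillin, rose by 2.65 ± 0.46 (adjusted p = 0.000484), SMAD3, a mediator of the signal, by 0.50 ± 0.13 (adjusted p = 0.00737), while SMAD2 fell by 0.29 (SE 0.07, adjusted p = 0.00734) and LTBP1 fell by 0.38 (SE 0.10, adjusted p = 0.00747).

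Markers of other cell types moved with DCB too, and their counts over the 5 lines stand beside 17.9% of all genes that rose. The sum of 8 fibroblast markers was 2140 to 2279 in AGS with DCB, against 471.6 to 492.9 with DMSO, and 5 of the 8 rose over the 5 lines. It was 58.8 to 75.2 in YCCEL1 with DCB, against 6.93 to 30.8 with DMSO, where DCN, LUM, FAP, PDGFRA and PDGFRB were at 0. It was 112.3 to 114.4 in SNU719 with DCB, against 20.02 to 40.69 with DMSO. All of the 8 except PDGFRA also stand in the matrix or the cytoskeleton and surface list. In SNU16 the sum was 275.6 to 285.5 with DCB, against 130.8 to 155.2 with DMSO. The sum of 8 leucocyte markers was 887.1 to 928.5 in SNU719 with DCB, against 185.2 to 233.9 with DMSO, with the B cell marker MS4A1 at 0. It was also higher with DCB without overlap in the other 4 lines, for example at 372.1 to 401.9 in YCCEL1 with DCB, against 98.8 to 154.4 with DMSO. Of these leucocyte markers, 5 of 7 tested rose over the 5 lines. The sum of 6 endothelial markers was at most 46.5 in any library, and 3 of 5 tested rose. The part of these changes in the rise of the mesenchymal genes was not tested.

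Over the 10 group means, genes most like ESRP1 included CYP2S1 (r = 0.990) and TMPRSS2 (0.986), among 14351 genes with a mean of at least 20. CYP2S1, a cytochrome of epithelia, averaged 14.9 in HGC27 with DCB, against 43.6 with DMSO, and 998.9 to 1751 elsewhere. TMPRSS2, an epithelial serine protease, was listed at 0 in HGC27 with DCB, against a mean of 4.16 with DMSO. Those most like ZEB1 were WNT10A (r = 0.972), ADGRL3 (0.968) and OLMALINC (0.968). ADGRL3, an adhesion receptor, averaged 308 in HGC27 with DCB, against 368.8 with DMSO, and at most 15.9 elsewhere. These correlations are descriptions over 10 means from 5 lines, and HGC27 holds the lowest pair of means of ESRP1 and the highest pair of ZEB1. The r between ESRP1 and ZEB1 was -0.928, and that between CDH1 and EPCAM was 0.817.

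MIR200CHG, the host transcript of part of the miR-200 family, was looked up after other values had been seen. It was listed at 0 in all 4 HGC27 libraries and had 8.89 to 36.7 in the other 16. Its difference with DCB passed in no line (limma adjusted p from 0.273 to 1).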

How the data were processed

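RNA of 5 gastric cancer lines was sequenced after 72 h with DCB or DMSO, with 2 libraries per group. The authors' table, as deposited, holds normalized estimated counts, a signal in no named unit. Of low values, 48.7% to 54.8% per library are whole multiples (within 0.02) of a step of 0.754 to 1.21, so they were not treated as counts. The study's methods describe tag libraries aligned to GRCh38 with the EBV genome, while the labels describe poly(A) libraries and the submitters' processing notes list GRCh37 and the tools DESeq2 1.14.1, featureCounts 1.5.1 and STAR 2.5.2b. The table's gene coordinates are those of GRCh38: 92.6% of 60064 matched genes have the start and end of a GRCh38 annotation. Strand of counting is not given in the sources used here, so antisense reads cannot be told apart.

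Genes with a summed value above 10 across the 20 libraries entered limma 3.58.1 in R 4.3.3 (trend, log2(value + 1), Benjamini-Hochberg over 27350 genes, adjusted p under 0.05). Log2 differences are on that scale, which understates changes of low genes. Single lines, line pairs and response differences came from 1 fit of 10 groups, and the effect over the 5 lines from a fit with a term for the line. The latter takes each library as a unit, and differences in response between lines stay in its residual. The fits were also run on simulated data, with changes that were the same in all lines and only in genes well above 0. That run does not show how the fits perform on genes near 0 or with responses that differ by line. Figures used matplotlib 3.10.9 in Python 3.11.15, and values are rounded to 4 significant digits or fewer.

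The 10 genes and all lists were chosen with earlier results of these data known. Named genes are the 10 members, up to 4 genes per list with the smallest adjusted p in the comparison described, and the 3 genes most correlated with ESRP1 and with ZEB1, of which some are not reported here. Genes named outside this rule (MIR200CHG, and marker and list genes given as background) were chosen after their values were seen. Where a group is listed at 0 in both libraries, no fold is given, though such genes enter list medians. Alternatives covered the pseudocount, filter, scaling, trend, fold limit, fitted lines, a replicate block and each library left out. The fit without HGC27 was added after seeing the data. The methylation data of the study were not used.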

Additional observations from a re-analysis of the deposited data

Results flagged for a closer look

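The genes below were flagged because they passed a test of the difference in DCB effect between lines or groups of lines. The spread in that test is between libraries of the same line and treatment. It therefore does not measure how the lines within a group vary. Adjusted p-values are those of limma. Among the 5 lines, VIM had the smallest (adjusted p = 0.00018), rising in 4 lines and falling in HGC27. SNAI2 followed (0.000327), with its rise in SNU719. CDH1 (0.00103), with its rise in HGC27, and FN1 (0.00367), with its largest rise in AGS, also differed, as did CDH2 (0.00483), ESRP1 (0.00542) and SPARC (0.00823).

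Between EBV+ and EBV- lines, the response differed for SNAI2 (adjusted p = 0.000943), CDH2 (0.00459) and CDH1 (0.0338). The SNAI2 difference was carried by SNU719, since YCCEL1 had 1.05 and 0 with DCB and was listed at 0 with DMSO. The CDH1 and CDH2 differences were negative, with the rises in HGC27 for CDH1, and in AGS and HGC27 for CDH2, on the EBV- side.

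Between CIMP+ and CIMP- lines, the response differed for SPARC (adjusted p = 0.00193), FN1 (0.00328), SNAI2 (0.00593) and VIM (0.00843). FN1, VIM and SPARC were higher with DCB without overlap in all 3 CIMP+ lines. Among the CIMP- lines, so were FN1 in HGC27 and SNU16 and VIM in SNU16. How many of all genes do so was not counted.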

How the results depend on the processing

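Each value of the 10 genes was recomputed under the alternatives, and no call reversed. With an added log2 fold limit of 2, 2 of the 10 genes passed in HGC27 (4 without it), 1 over the 5 lines (5 without it), FN1, and 2 for the CIMP difference (4 without it). With each line fitted alone, 2 passed in HGC27 and 0 in SNU16, where 1 passed in the joint fit and 1 was higher at an unadjusted limma p under 0.05 alone. As the mean of the 5 effects from the 10-group fit, 8 passed over the lines. Without HGC27, 5 did.

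Leaving out 1 library gave 1 to 3 passing genes in YCCEL1 (1 without its second DMSO library), 3 to 4 in SNU719, 4 to 5 in AGS, 3 to 4 in HGC27, 1 to 2 in SNU16 (2 without its second DMSO library), 4 to 5 over the 5 lines, 2 to 4 for EBV, 4 to 6 for CIMP and 7 to 8 among lines, with 55 to 60 passing line pairs for DMSO and 69 to 73 for DCB. An arm left with 1 library was assumed to vary like the other groups. Calls gained that way included EPCAM in HGC27 without the second DCB library (adjusted p = 0.014), CDH1 in AGS without the second DMSO library (0.028), and ZEB1 in AGS without the first (0.031) and in SNU16 without the second DMSO library (0.035).

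Same-numbered libraries did not deviate together (r = -0.0236 to 0.0354 per line), and the main fits did not treat them as pairs. These correlations cannot show whether they were grown or processed as pairs. With a replicate block the counts were 3, 4, 4, 4 and 1 for YCCEL1, SNU719, AGS, HGC27 and SNU16, 5 over the lines, 3, 4 and 7 for the response differences, and 58 and 75 for line pairs. Of single-gene values, 659 of 700 in single lines, 286 of 310 over the lines and 552 of 580 response differences kept direction and call. With equal totals, the share of passing genes over the whole table that were higher was 78.7% in YCCEL1 (67.8% as deposited), 72.8% in HGC27 (61.9%), 77.1% in SNU16 (65.7%) and 82.4% over the lines (72.1%). Median ratio scaling moved it the other way, to 58.5% in YCCEL1, 58.3% in AGS (66.9% as deposited), 58.2% in HGC27, 57.5% in SNU16 and 62.5% over the lines. In HGC27 the median of all genes moved by 0.12 on the log2 scale. Values of a few units rest on few reads, and their size depends on the pseudocount.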
